A study of Homo sapiens with 11 samples.

Results

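The genes for collagens, laminins and integrins were followed through 11 RNA-seq libraries from a pair of human cancer cell lines. Members were chosen by gene symbol, with earlier results of these data known. Collagen chains were COL followed by a number, A and a number. Laminin chains were LAMA, LAMB or LAMC with a number, and integrin subunits ITGA or ITGB with a number or letter. The symbols gave 80 of the 23228 genes in the count tables, namely 43 collagens, 12 laminins, 17 integrin alpha subunits and 8 integrin beta subunits. U2OS is an osteosarcoma line and MDA-MB231 a breast cancer line labelled as basal type, both cultured in dishes. Cells received the vehicle DMSO or, for 8 h, 1 µM doxorubicin, 20 µM etoposide, 0.2 µM paclitaxel or 40 µg/mL MMS (methyl methanesulfonate). Doxorubicin and etoposide act on type II topoisomerases, MMS methylates DNA, and paclitaxel stabilises microtubules. Each line and agent is represented by 1 library, except for 2 MDA-MB231 DMSO libraries. MDA-MB231 replicate 1 of DMSO was the reference for doxorubicin, etoposide and paclitaxel (the first MDA-MB231 series), and replicate 2, whose title ends in 8hr like that of the MDA-MB231 MMS library, was the reference for MMS (the second series). The labels give no duration for the other DMSO libraries. Nothing in the labels says that the libraries came from separate cultures, so p-values measure only the spread between these libraries. With 1 library per line and drug, that spread comes from how the drug responses differ between the lines. It may also be technical.

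Collagens are triple helices of alpha chains, each chain the product of its own gene. Fibrillar collagens form the cables of connective tissue, type IV collagen forms the sheet of the basement membrane, and other classes bridge, coat or anchor these structures. Laminins are heterotrimers of an alpha, a beta and a gamma chain that polymerise in the basement membrane. Integrins pair an alpha with a beta subunit at the cell surface and bind collagens, laminins or proteins such as fibronectin, with specificity set mainly by the alpha subunit. Carcinoma and osteosarcoma cells in culture make matrix of their own and attach to it through integrins.

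Levels are given as CPM (gene counts scaled to a fixed library total, with library sizes scaled by the TMM method). Unless stated otherwise, 5 U2OS values follow the order DMSO, doxorubicin, etoposide, MMS and paclitaxel. The 4 values of the first MDA-MB231 series follow the order DMSO, doxorubicin, etoposide and paclitaxel, and the 2 values of the second series are DMSO and MMS. Changes are log2 fold changes ± SE from 1 edgeR quasi-likelihood fit of all 11 libraries, in which the 2 lines are the replicates of each drug. Calls were made at a Benjamini-Hochberg adjusted p under 0.05 over the 15888 genes tested. Of the 80 members 66 were tested. The other 14 had at most 23 reads and 0.748 CPM in any library: COL10A1, COL21A1, COL23A1, COL24A1, COL28A1, COL6A5, COL6A6, COL9A1, COL9A3, ITGA8, ITGAD, ITGAL, ITGB6 and LAMB4.

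Gene counts ranged from 16774156 to 31588683 per library, and TMM factors from 0.836 in U2OS doxorubicin to 1.17 in U2OS etoposide. Without these factors the median of all genes after doxorubicin moved from 0.07 to -0.15, and the share of higher genes among all calls from 51.5% to 37.6%. The 2 MDA-MB231 DMSO libraries differed by 2-fold or more in 2 of 38 members at 5 CPM or more, against 1.78% of all genes. These were ITGB4 (59.7 and 28.9 CPM) and LAMA4 (2.48 and 5.75 CPM), and COL4A1 was close behind at 69.2 and 139 CPM. Among markers of bone cells, RUNX2 stood at 23.3 CPM in U2OS DMSO and at 34.3 and 31.9 CPM in MDA-MB231 DMSO, CDH11 at 16.2 CPM and at 286 and 339 CPM, while SP7, BGLAP and IBSP stayed at or under 0.635 CPM in every library. The epithelial keratin KRT8 stood at 225 and 268 CPM in MDA-MB231 DMSO and at 550.3 CPM in U2OS DMSO. So in DMSO RUNX2 and CDH11 were not higher in U2OS, nor KRT8 in MDA-MB231. Other markers of the same lists went the other way, so the lists were mixed. The bone marker ALPL stood at 7.84 CPM in U2OS DMSO and at 0 CPM in both MDA-MB231 DMSO libraries. KRT19 stood at 0.205 CPM in U2OS DMSO and at 167 and 132 CPM in MDA-MB231 DMSO. KRT17 stood at 510 CPM in U2OS DMSO and at 1.14 and 3.81 CPM in MDA-MB231 DMSO. In MDA-MB231 DMSO CDH1 stood at 0.393 and 1.75 CPM. Both lines carried VIM, at 1850.4 CPM in U2OS DMSO and at 2373.6 and 2144.5 CPM in MDA-MB231. The leukocyte marker PTPRC stayed at or under 0.561 CPM, and CD3E had no read in any U2OS library.

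Together the 80 members drew 1.04% of gene counts in U2OS DMSO, 1.65% after doxorubicin, 0.820% after etoposide, 0.508% after MMS and 1.06% after paclitaxel. In MDA-MB231 their share was 0.784% in DMSO replicate 1, 1.02% after doxorubicin, 0.625% after etoposide and 0.840% after paclitaxel. The second MDA-MB231 series gave 0.816% with DMSO and 0.558% with MMS. The doxorubicin library was the highest and the MMS library the lowest in each line. In bulk samples such as these, fewer cells of a kind and less RNA per cell cannot be told apart.

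**Figure D1:**
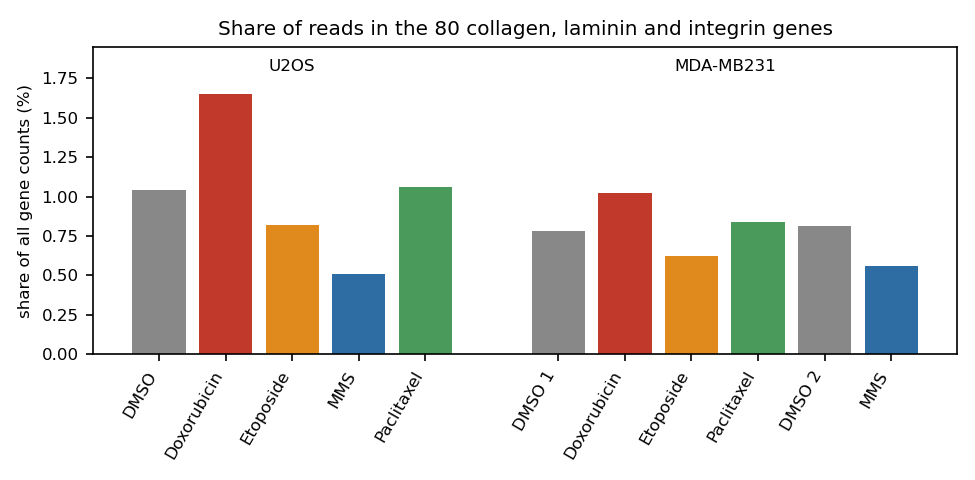
Share of all gene counts (%, linear axis from 0) that fell in the 80 members, as 1 bar per library, grouped by line and coloured by agent. U2OS doxorubicin stands highest at 1.65% and U2OS MMS lowest at 0.508%.

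After doxorubicin, 30 of the 66 tested members rose and none fell, where 21.9% of all genes tested were called higher and 20.6% lower. The median change was 0.90 over the members and 0.07 over all genes, and 61 members had a positive value. At an unadjusted p under 0.05, 41 were higher and 1 was lower. DESeq2 called 33 members higher and limma-voom 38, neither calling any lower. With library totals in place of TMM factors, 23 were higher and 1, ITGA2, was lower, against 15.4% and 25.6% of all genes. All 3 families took part: 15 of 34 collagens, 4 of 11 laminins and 11 of 21 integrins rose. Over the fits that each left out 1 library, the count ran from 20 to 33.

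**Figure D2:**
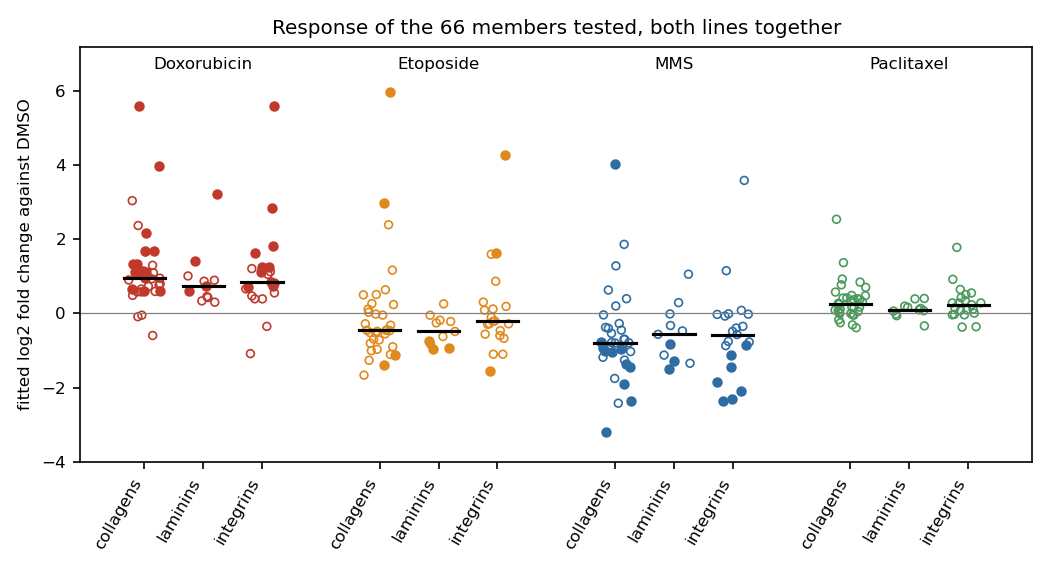
Fitted log2 fold change against DMSO of the 66 tested members (vertical axis) for each drug, split into collagens, laminins and integrins. Filled circles passed an adjusted p under 0.05, open circles did not, and black bars are medians: 30 filled circles lie above 0 for doxorubicin, 20 lie below 0 for MMS, and paclitaxel has none.

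Of the fibrillar collagens 5 of 10 rose: COL11A2, COL11A1, COL5A3, COL5A1 and COL27A1. COL11A2, a minor chain of cartilage-type fibrils, stood at 2.20, 11.4, 19.5, 6.67 and 4.30 CPM in U2OS, 0.315, 9.82, 2.0 and 0.352 CPM in the first MDA-MB231 series and 0.125 and 0.683 CPM in the second. Both doxorubicin libraries exceeded every DMSO and paclitaxel library, and the fitted change was 3.97 ± 0.76 (adjusted p = 0.00355). It passed with any 1 library left out, at 2.24 without MDA-MB231 doxorubicin and up to 5.39 without U2OS doxorubicin. COL11A1, its partner chain, was at 59.4, 149, 25.4, 22.9 and 61.8 CPM in U2OS and at most 14 reads in any MDA-MB231 library. Its change of 1.68 ± 0.47 (adjusted p = 0.0191) therefore rested on U2OS. COL5A3, a chain of type V collagen, was at 13.1, 41.3, 17.7, 1.25 and 10.9 CPM in U2OS, with 0 reads in both MDA-MB231 DMSO libraries and 11 after doxorubicin. Its fitted change was 2.16 ± 0.59 (adjusted p = 0.0196). With 1 library left out the value ran from 1.66 without MDA-MB231 doxorubicin to 5.98 without U2OS DMSO. It was also over 1.5 times higher without U2OS doxorubicin. These higher values rest on the 11 MDA-MB231 reads against 0, which are too few to serve as a replicate of the U2OS rise.

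COL5A1, the main chain of type V collagen, stood at 439, 868, 353, 263 and 421 CPM in U2OS, 105, 131, 76.8 and 122 CPM in the first MDA-MB231 series and 120.4 and 49.3 CPM in the second. Each line had its highest level after doxorubicin, and the change was 0.60 ± 0.21 (adjusted p = 0.0479). That call was lost in 6 of the 11 fits that left out a library (0.30 to 0.83, adjusted p up to 0.346), the lowest value being without U2OS doxorubicin. COL27A1, also fibrillar, rose by 1.16 ± 0.32 (adjusted p = 0.0178). The chains of type I collagen did not follow: COL1A1 stood at 48.6, 53.3, 54.5, 48.0 and 65.0 CPM in U2OS and went from 12.9 to 4.30 CPM in MDA-MB231 (-0.59 ± 0.49, adjusted p = 0.356), and COL1A2 had at most 15 reads in any library.

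Type IV collagen is the network of the basement membrane, and COL4A1 and COL4A2 encode the chains of its most widespread form. COL4A1 stood at 365, 985, 282, 116 and 372 CPM in U2OS, 69.2, 102, 50.7 and 67.8 CPM in the first MDA-MB231 series and 139 and 67.3 CPM in the second. COL4A2 stood at 864, 2119.9, 708, 343 and 859.9 CPM in U2OS, 202, 293, 144 and 205 CPM in the first MDA-MB231 series and 327 and 219.7 CPM in the second. Both genes were highest in U2OS doxorubicin, and in U2OS both were lowest after MMS. After doxorubicin COL4A1 rose by 1.13 ± 0.23 (adjusted p = 0.00497) and COL4A2 by 1.06 ± 0.23 (adjusted p = 0.00653). Both calls held in all 11 fits that left out a library and were lost with a block for the line alone (adjusted p 0.215 and 0.145), which averages the 2 MDA-MB231 DMSO libraries.

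The pair is shown because its genes lie head to head: their RefSeq starts are 126 bases apart on chromosome 13, and both strands are read away from the stretch between them. Of that stretch (GRCh38.p14, chr13:110307158-110307283), 30 bases around its CCAAT are printed on the plus strand, from 110307167 to 110307196, with the CCAAT in capitals. The whole stretch held 1 GGGCGG, 1 CCAAT and no TATAAA or TGANTCA.
COL4A1 and COL4A2 start region: gggccgagctccCCAATttgttggcgctgc

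Other basement membrane and anchoring collagens rose as well, 5 of 9 in all. COL18A1, the source of endostatin, stood at 10.8, 23.4, 9.84, 5.07 and 12.3 CPM in U2OS, 52.0, 99.2, 47.8 and 67.5 CPM in the first MDA-MB231 series and 84.1 and 61.6 CPM in the second, and rose by 1.11 ± 0.20 (adjusted p = 0.00249). COL7A1, the anchoring fibril collagen, went from 351 to 955 CPM (U2OS) and 80.3 to 115 CPM (MDA-MB231), a difference of 0.97 ± 0.25 (adjusted p = 0.0128). COL4A5, of the type IV chains altered in Alport syndrome, stood at 74.1, 141, 58.4, 38.9 and 83.4 CPM in U2OS, 36.2, 41.3, 21.1 and 42.8 CPM in the first MDA-MB231 series and 37.2 and 21.6 CPM in the second. Its change of 0.61 ± 0.21 (adjusted p = 0.0446) was lost in 10 of the 11 fits with a library left out (adjusted p up to 0.267).

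Of the beaded filament and network collagens, type VI and its relatives, 3 of 5 rose. COL6A1 stood at 153, 372, 165, 40.0 and 168 CPM in U2OS, 98.8, 206, 150.4 and 129 CPM in the first MDA-MB231 series and 93.8 and 56.4 CPM in the second. COL6A2 was at 191, 481, 207, 104 and 209 CPM in U2OS, 23.8, 52.1, 28.4 and 34.4 CPM in the first MDA-MB231 series and 18.4 and 16.6 CPM in the second. In each line the doxorubicin library was the highest for both chains, and the changes were 1.32 ± 0.25 (adjusted p = 0.00338) for COL6A1 and 1.33 ± 0.19 (adjusted p = 0.00105) for COL6A2. COL6A3, the third chain, did not pass the test (0.95 ± 0.50, adjusted p = 0.154), at 321 and 478 CPM in U2OS and 18.0 and 29.7 CPM in MDA-MB231. COL8A1, a network collagen of vessels and basement membranes, was at 30.02, 53.3, 9.87, 14.7 and 31.3 CPM in U2OS, 243, 326, 99.1 and 225 CPM in the first MDA-MB231 series and 351 and 194 CPM in the second. Its level in DMSO of the second series was above that in MDA-MB231 doxorubicin. Its rise of 0.66 ± 0.17 (adjusted p = 0.0148) was lost without U2OS doxorubicin (0.48, adjusted p 0.079), U2OS DMSO (0.66, 0.0623) or MDA-MB231 DMSO replicate 1 (0.72, 0.0556).

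Of the fibril-associated collagens, COL22A1 and COL20A1 rose. COL22A1, found at tissue junctions, was at 12.1, 35.8, 26.6, 4.91 and 20.1 CPM in U2OS and had at most 2 reads in any MDA-MB231 library (1.69 ± 0.48, adjusted p = 0.0238). COL20A1 went from 2 to 37 reads (U2OS) and 0 to 50 reads (MDA-MB231), and its fitted value of 5.62 ± 0.90 rests on these few reads. COL12A1, which coats collagen fibrils, moved from 642 to 897 CPM (U2OS) and 200.3 to 259.7 CPM (MDA-MB231) and did not pass (0.49 ± 0.20, adjusted p = 0.0734). None of the transmembrane collagens passed, COL13A1 coming closest at 0.77 ± 0.28 (adjusted p = 0.0507).

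Among laminin alpha chains only LAMA2 rose, the alpha chain of muscle laminin. It stood at 5.79, 14.1, 5.33, 12.7 and 5.33 CPM in U2OS, 1.22, 29.7, 1.13 and 0.951 CPM in the first MDA-MB231 series and 1.5 and 2.01 CPM in the second. The MDA-MB231 doxorubicin library alone reached 29.7 CPM (635 reads against 31 with DMSO). As a log2 ratio of CPM plus 0.5, with a 95% exact binomial interval of the reads that has no such offset, this was 4.13 (interval 4.09 to 5.18), while the U2OS ratio was 1.22 (interval 0.97 to 1.61). The fitted change was 3.24 ± 0.81 (adjusted p = 0.0118). Without the MDA-MB231 doxorubicin library it was 1.06 with an adjusted p of 0.053, and without the DMSO library of that series 2.64 with an adjusted p of 0.0915.

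The 250 bases before the RefSeq start of LAMA2 are given because this member had the widest gap between the lines after doxorubicin (GRCh38.p14, chr6:128882888-128883137, plus strand). They held none of the 4 motifs that were searched on both strands, namely the GC box as GGGCGG, the CCAAT box, the TATA box as TATAAA and the AP-1 site as TGANTCA, so the line is in lower case throughout.
LAMA2 promoter: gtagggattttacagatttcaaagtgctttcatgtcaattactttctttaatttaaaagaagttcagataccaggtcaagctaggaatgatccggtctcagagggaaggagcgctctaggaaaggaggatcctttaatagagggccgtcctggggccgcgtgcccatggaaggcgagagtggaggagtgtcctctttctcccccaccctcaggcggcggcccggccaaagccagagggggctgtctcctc

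Laminin beta and gamma chains are shared between trimers, and 3 of 6 rose. LAMC1, the common gamma chain, was at 559, 1070.4, 378, 268 and 488 CPM in U2OS, 401, 503, 268 and 373 CPM in the first MDA-MB231 series and 492 and 361 CPM in the second (0.74 ± 0.20, adjusted p = 0.0171). LAMB1, its usual beta partner, was at 334, 633, 178, 111 and 374 CPM in U2OS, 62.6, 68.2, 27.9 and 61.3 CPM in the first MDA-MB231 series and 82.5 and 36.1 CPM in the second (0.62 ± 0.20, adjusted p = 0.0347). In U2OS doxorubicin stood above DMSO for both chains, and in MDA-MB231 LAMB1 moved only from 62.6 to 68.2 CPM. Without U2OS doxorubicin the values were 0.43 for LAMC1 (adjusted p 0.102) and 0.31 for LAMB1 (adjusted p 0.228). LAMC1 was also lost without U2OS DMSO (0.78, adjusted p 0.0549), and LAMB1 in 7 of the 11 fits in all.

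Integrin beta subunits include ITGB1, the partner of most collagen, laminin and fibronectin receptors. It was at 1029, 2595, 787, 615 and 950.1 CPM in U2OS, 1290.0, 2167, 1142 and 1236 CPM in the first MDA-MB231 series and 1049 and 847 CPM in the second. Both doxorubicin libraries stood above all other libraries, and the change was 1.13 ± 0.19 (adjusted p = 0.00209). ITGB5, which pairs with the alpha V subunit, was at 351, 982, 290.4, 129.8 and 376 CPM in U2OS, 149, 245, 135 and 178 CPM in the first MDA-MB231 series and 173 and 108 CPM in the second, a rise of 1.25 ± 0.25 (adjusted p = 0.00396). ITGB2, the leukocyte beta subunit, went from 1.43 to 6.01 CPM (U2OS) and 59.8 to 115 CPM (MDA-MB231), a difference of 1.63 ± 0.34 (adjusted p = 0.00533). ITGB7, also a leukocyte subunit, went from 8 to 31 reads (U2OS) and 9 to 30 reads (MDA-MB231). Its rise of 1.82 ± 0.56 (adjusted p = 0.0269) rests on these few reads. ITGB4, the hemidesmosome subunit, did not pass and was lower in both doxorubicin libraries, at 10.4 and 9.04 CPM in U2OS and 59.7 and 47.9 CPM in MDA-MB231 (-0.35 ± 0.22, adjusted p = 0.242).

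Integrin alpha subunits split by ligand. Of the laminin receptors, ITGA7, the muscle laminin receptor, was at 9.02, 41.1, 21.1, 13.7 and 15.4 CPM in U2OS, 0.275, 3.51, 1.29 and 0.564 CPM in the first MDA-MB231 series and 0 and 0.442 CPM in the second. Its rise of 2.85 ± 0.49 (adjusted p = 0.00222) held in every fit with a library left out. ITGA3, a receptor for laminin-332, stood at 1237, 2061, 681, 311 and 1222 CPM in U2OS, 1049, 1419, 712 and 1072 CPM in the first MDA-MB231 series and 1268 and 722 CPM in the second, and rose by 0.75 ± 0.24 (adjusted p = 0.0336), a call lost without U2OS doxorubicin (0.54, adjusted p 0.18) or MDA-MB231 DMSO replicate 1 (0.85, 0.0709). ITGA6, its relative, moved from 467 to 617 CPM (U2OS) and 618 to 660.3 CPM (MDA-MB231), within the spread (0.48 ± 0.33, adjusted p = 0.272).

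Of the fibronectin receptors, ITGA5 was at 331, 663, 249, 155 and 311 CPM in U2OS, 305, 426, 277 and 344 CPM in the first MDA-MB231 series and 268 and 182 CPM in the second (0.84 ± 0.21, adjusted p = 0.0106), and without U2OS doxorubicin its value was 0.50 with an adjusted p of 0.0662. ITGAV, which binds vitronectin and other proteins with an RGD site, rose from 428 to 795 CPM (U2OS) and 181 to 285 CPM (MDA-MB231), a difference of 0.82 ± 0.19 (adjusted p = 0.00904). Of the collagen receptors, ITGA1 was at 27.5, 73.8, 30.4, 17.6 and 24.9 CPM in U2OS, 30.7, 61.0, 42.5 and 65.1 CPM in the first MDA-MB231 series and 37.7 and 27.5 CPM in the second, a rise of 1.25 ± 0.32 (adjusted p = 0.0126). ITGA2 was at 364, 148, 128, 34.4 and 357 CPM in U2OS, 329.8, 121, 247 and 427 CPM in the first MDA-MB231 series and 368 and 211 CPM in the second. Doxorubicin gave the lowest ITGA2 level of its MDA-MB231 series and a U2OS level near that of etoposide, and the fitted value, -1.08 ± 0.47 (adjusted p = 0.0941), did not pass the test. ITGAM, a leukocyte alpha subunit, went from 1 to 37 reads (U2OS) and 0 to 59 reads (MDA-MB231), which is too few for its fitted value to be a bound. ITGAE, another leukocyte subunit, rose by 0.72 ± 0.19 (adjusted p = 0.0168).

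**Figure D3:**
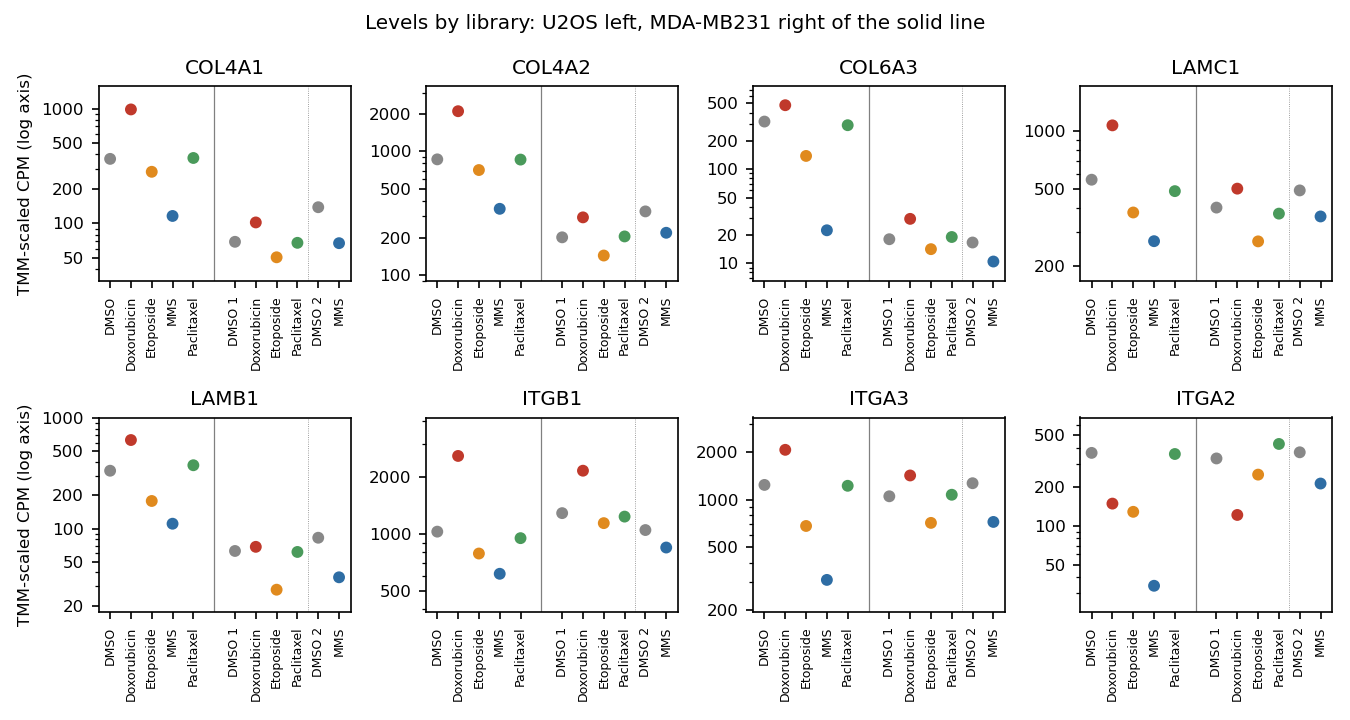
TMM-scaled CPM (log axis, own range per panel) of 8 members in the 11 libraries, U2OS left and MDA-MB231 right of the solid line, with the second MDA-MB231 series right of the dotted line. Doxorubicin (red) is above the DMSO library (grey) of its own series in both lines for every gene shown except ITGA2. DMSO of the second MDA-MB231 series is above MDA-MB231 doxorubicin for COL4A1 (139 and 102 CPM), COL4A2 (327 and 293 CPM) and LAMB1 (82.5 and 68.2 CPM). MMS (blue) is below its DMSO library in each panel, as for COL6A3 in U2OS at 321 and 22.4 CPM.

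After etoposide, 4 members rose (6.06%) and 6 fell (9.09%), where 7.97% of all genes tested were higher and 9.23% lower. Both shares were near those of all genes. The median was -0.30 over the members, with 46 of 66 values negative, and 0.02 over all genes. Before adjustment (p under 0.05), 6 were higher and 14 lower. The 4 that rose were COL20A1, ITGAM, COL11A2 and ITGA7. COL11A2 reached 19.5 CPM in U2OS and 2.0 CPM in MDA-MB231, a change of 2.97 ± 0.72 (adjusted p = 0.0262), and ITGA7 21.1 and 1.29 CPM (1.64 ± 0.49, adjusted p = 0.0494). COL20A1 counted 155 and 59 reads and ITGAM 61 and 16. The COL11A2 call was lost in 7 and the ITGA7 call in 6 of the 11 fits with a library left out. With library totals 64.3% of all calls after etoposide were higher, against 46.3% with TMM factors.

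The 6 that fell after etoposide were ITGB4, COL8A1, COL13A1, LAMB1, LAMA5 and LAMB3. ITGB4 stood at 10.4, 9.04, 4.19, 12.6 and 11.1 CPM in U2OS, 59.7, 47.9, 19.3 and 71.2 CPM in the first MDA-MB231 series and 28.9 and 22.6 CPM in the second. Its fall was -1.56 ± 0.23 (adjusted p = 0.00652), with a MDA-MB231 log2 ratio of -1.60 against DMSO replicate 1 and -0.57 against replicate 2. COL8A1 went from 30.02 to 9.87 CPM (U2OS) and 243 to 99.1 CPM (MDA-MB231), a difference of -1.40 ± 0.18 (adjusted p = 0.00508). COL13A1, a transmembrane collagen at cell junctions, was at 36.7, 59.1, 16.2, 6.08 and 45.4 CPM in U2OS, 197, 275, 74.1 and 222 CPM in the first MDA-MB231 series and 186 and 85.4 CPM in the second, a change of -1.11 ± 0.29 (adjusted p = 0.0322). LAMB1 went from 334 to 178 CPM and from 62.6 to 27.9 CPM (-0.97 ± 0.21, adjusted p = 0.0182).

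LAMA5, a chain of the most widespread adult laminins, fell from 286 to 171 CPM (U2OS) and 207 to 104 CPM (MDA-MB231), a difference of -0.92 ± 0.17 (adjusted p = 0.0129), and LAMB3 of laminin-332 to 119.7 CPM in U2OS etoposide, and from 915 to 686 CPM in MDA-MB231 (-0.73 ± 0.20, adjusted p = 0.0361). All 6 genes were lower than DMSO in both lines. The count of 10 calls depended on single libraries: it was 0 without MDA-MB231 DMSO replicate 1, 2 without MDA-MB231 etoposide, 3 without U2OS DMSO and 5 without U2OS etoposide.

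Doxorubicin and etoposide were compared directly in the same fit, with the DMSO libraries shared. Here 42 members were higher after doxorubicin and none lower, against 24.1% and 22.3% of all genes, with a median difference of 1.23 over the members and 0.08 over all genes. Before adjustment the counts at p under 0.05 were 47 and 1. With library totals the counts were 34 and 1 (COL1A1), the median of all genes was -0.27, and 32.6% of all calls were higher, against 52.0% with TMM factors. Of the laminins 9 of 11 were higher, among them all 6 tested beta and gamma chains. COL8A1 differed by 2.06 ± 0.19 (adjusted p = 0.000149), LAMB1 by 1.59 ± 0.22 (adjusted p = 0.000595), LAMA5 by 1.26 ± 0.18 (adjusted p = 0.000701) and ITGB1 by 1.34 ± 0.21 (adjusted p = 0.00103). Of the 24 not called, 4 had a negative value, among them ITGA2 (-0.41 ± 0.50, adjusted p = 0.52) and COL1A1 (-1.23 ± 0.52, adjusted p = 0.0781). Without 1 library the count ran from 28 to 42.

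After MMS, 20 members fell and 1 rose, where 5.16% of all genes tested were lower and 5.23% higher. The median change was -0.77 over the members and -0.04 over all genes, with 55 of 66 values negative. At an unadjusted p under 0.05, 29 were lower and 3 higher. DESeq2 called 23 lower and none higher, and limma-voom 22 lower and 1 higher. The falls comprised 10 of 34 collagens, 3 of 11 laminins and 7 of 21 integrins. COL20A1, at 25 reads in U2OS and 6 in MDA-MB231, was the member called higher (4.05 ± 1.00, adjusted p = 0.0378). The count of 21 was 0 without the U2OS MMS library and 2 without U2OS DMSO. Leaving out DMSO of the first MDA-MB231 series gave 9. Accordingly every call named below was lost without U2OS MMS.

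Among collagens, COL6A3 had the lowest ratio within a line, from 321 to 22.4 CPM in U2OS, a log2 ratio of -3.81 (interval -3.96 to -3.71), against -0.65 (interval -0.92 to -0.42) in MDA-MB231, where it went from 16.6 to 10.4 CPM. Its fitted value of -2.35 ± 0.64 (adjusted p = 0.0488) lost the call in 9 of the 11 fits with a library left out. COL6A1 changed by -1.35 ± 0.27 (adjusted p = 0.0212). COL4A1 changed by -1.44 ± 0.25 (adjusted p = 0.0132) and COL4A2 by -1.05 ± 0.24 (adjusted p = 0.032), with COL4A1 going from 365 to 116 CPM (U2OS) and 139 to 67.3 CPM (MDA-MB231). The other basement membrane and network chains called were COL4A5 (-0.94), COL8A1 (-0.97) and COL18A1 (-0.78), with adjusted p of 0.0324, 0.0163 and 0.0455. Against DMSO of the first MDA-MB231 series, COL4A1 in MDA-MB231 MMS was almost level (67.3 and 69.2 CPM). By that reference COL4A2 (219.7 and 201.8 CPM) and COL18A1 (61.6 and 52.0 CPM) were higher after MMS. COL4A5 and COL8A1 were lower against either MDA-MB231 DMSO library. COL13A1 went from 36.7 to 6.08 CPM and from 186 to 85.4 CPM (-1.91 ± 0.31, adjusted p = 0.0115). COL5A1 changed by -1.02 ± 0.21 (adjusted p = 0.0235) and was the lowest ratio of MDA-MB231, from 120.4 to 49.3 CPM.

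COL5A3 had the lowest fitted value (-3.21 ± 0.70, adjusted p = 0.0304), from 256 reads to 32 in U2OS. It had 0 reads in MDA-MB231 with DMSO and with MMS, and without U2OS DMSO its fitted value was 0.67 (adjusted p 0.762). In U2OS it went from 13.1 CPM with DMSO to 41.3 with doxorubicin and 1.25 with MMS. The 250 bases before its RefSeq start are given because it had the largest difference between these drugs (GRCh38.p14, chr19:10010505-10010754, minus strand), with its GGGCGG and its CCAAT, read on either strand, in capitals.
COL5A3 promoter: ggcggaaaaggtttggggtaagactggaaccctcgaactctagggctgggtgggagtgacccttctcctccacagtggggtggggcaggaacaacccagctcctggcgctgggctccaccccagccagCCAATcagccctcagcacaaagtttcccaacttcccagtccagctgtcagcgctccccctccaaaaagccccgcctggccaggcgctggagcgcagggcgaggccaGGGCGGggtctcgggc

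Of the laminins 3 of 11 fell. LAMB1 changed by -1.50 ± 0.21 (adjusted p = 0.00811), from 334 to 111 CPM (U2OS) and 82.5 to 36.1 CPM (MDA-MB231), and among the fits with a library left out lost the call in that without U2OS MMS (-1.19, adjusted p 0.328). Without the replicate block it did not pass either (-1.12, adjusted p 0.973). LAMC1 changed by -0.82 ± 0.21 (adjusted p = 0.0431), a call lost in 7 of the 11 fits with a library left out. LAMA4 just missed the threshold (-1.34 ± 0.38, adjusted p = 0.0562), and LAMA2 was higher in U2OS, at 12.7 against 5.79 CPM. LAMB3 was almost level (-0.01 ± 0.19, adjusted p = 0.976).

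Of the laminin receptors, ITGA6 changed by -1.86 ± 0.38 (adjusted p = 0.0212), from 467 to 73.1 CPM (U2OS) and 706 to 379 CPM (MDA-MB231), and ITGA3 by -1.45 ± 0.26 (adjusted p = 0.0157), from 1237 to 311 and from 1268 to 722 CPM. Of the collagen receptors, ITGA2 changed by -2.10 ± 0.55 (adjusted p = 0.044), from 364 to 34.4 CPM (U2OS) and 368 to 211 CPM (MDA-MB231). Of the fibronectin receptors, ITGA5 changed by -0.85 ± 0.21 (adjusted p = 0.0384), and ITGA4 by -2.36 ± 0.56 (adjusted p = 0.0332). ITGA4, which pairs with ITGB1 in a receptor for VCAM1 and fibronectin, stood at 10.6, 19.8, 4.14, 1.99 and 8.77 CPM in U2OS and had at most 6 reads in any MDA-MB231 library. Its change therefore rested on U2OS. The beta subunits called were ITGB5 (-1.12 ± 0.26, adjusted p = 0.0312) and ITGB8 (-2.31 ± 0.52, adjusted p = 0.0281). ITGB8, which activates latent TGF-beta with the alpha V subunit, stood at 64.8, 61.2, 18.1, 8.03 and 64.6 CPM in U2OS, 2.99, 5.66, 4.25 and 4.40 CPM in the first MDA-MB231 series and 3.56 and 1.08 CPM in the second. ITGB1 itself did not pass (-0.57 ± 0.20, adjusted p = 0.0981), at 615 CPM in U2OS and 847 CPM in MDA-MB231.

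MMS and doxorubicin were set against each other in the same fit, again with DMSO libraries shared. MMS was lower for 40 members and higher for none, against 22.3% and 20.4% of all genes, with medians of -1.73 and -0.18. At an unadjusted p under 0.05, 47 members were lower and none higher. With library totals 36 were lower, the median of all genes was 0.07, and 61.8% of all calls were higher, against 47.8% with TMM factors. COL5A3 differed most (-5.37 ± 0.77, adjusted p = 0.0013). Among members with well-counted libraries in both lines, COL6A3 differed by -3.30 ± 0.75 (adjusted p = 0.0075), COL13A1 by -2.68 ± 0.37 (adjusted p = 0.000835), COL6A1 by -2.68 ± 0.33 (adjusted p = 0.000506) and COL4A1 by -2.57 ± 0.30 (adjusted p = 0.000394). The count was 13 without U2OS MMS. Of the 66 values 2 were positive, those of COL1A1 (0.22 ± 0.53) and ITGB4 (0.32 ± 0.26).

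MMS and etoposide differed in 5 members, against 9.06% of all genes. MMS was lower for 4 (6.06% of members tested, against 4.33%) and higher for 1 (1.52%, against 4.73%). These small counts were near the shares of all genes. At an unadjusted p under 0.05, 16 members were lower and 4 higher. MMS was lower for COL5A3 (-3.72 ± 0.71), COL22A1 (-2.43 ± 0.51), COL6A1 (-1.86 ± 0.33) and COL4A1 (-1.13 ± 0.29), with adjusted p from 0.0148 to 0.0452, and higher for ITGB4 (1.53 ± 0.26, adjusted p = 0.0138). With library totals 8 were lower and 1 higher, and 35.7% of all calls were higher, against 52.2% with TMM factors. Leaving out MDA-MB231 etoposide or U2OS MMS gave 0 calls, leaving out U2OS etoposide or the DMSO library of the first MDA-MB231 series gave 3, and leaving out either library of the second series gave 12.

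After paclitaxel no member passed the test, and none of all genes tested did (0%). At an unadjusted p under 0.05, 3 members were higher and none lower, and DESeq2 and limma-voom also called none. The median was 0.18 over the members and 0.01 over all genes. In U2OS none of 50 members at 5 CPM or more differed by 2-fold from DMSO, where 0.0799% of all genes were higher and 0.00888% lower. In MDA-MB231 ITGA10 went from 6.73 to 17.2 CPM (log2 ratio 1.29, interval 1.10 to 1.61) and ITGA1 from 30.7 to 65.1 CPM (1.07, interval 0.96 to 1.21), both alpha subunits of collagen receptors. Against the DMSO library of the second series the ratios were 1.19 for ITGA10, still past 2-fold, and 0.78 for ITGA1, which is under it. They were the 2 of 38 members past 2-fold in their own series, where 0.462% of all genes were higher and 0.00923% lower. Their U2OS values were level, at 1.18 and 1.25 CPM for ITGA10 and 27.5 and 24.9 CPM for ITGA1.

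The response to each drug was also taken line by line, with 1 library on each side, so that these ratios have no replicate check and their intervals cover counting error only. In U2OS, 24 of 53 members at 5 CPM or more were 2-fold higher after doxorubicin and 1 lower, against 14.3% and 18.3% of all genes. MMS left 25 of 51 lower and 2 higher, against 11.2% and 7.32%, and etoposide 11 of 50 lower and 3 higher, against 7.5% and 6.11%. In MDA-MB231, doxorubicin gave 4 of 40 higher and 2 lower (8.19% and 18.8%), MMS 4 of 38 lower and none higher (3.4% and 2.71%), and etoposide 9 of 37 lower and 1 higher (11.1% and 8.62%).

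The direction of each ratio was then compared between the lines. Of 39 members at 5 CPM or more in each line, 33 were higher and 2 lower after doxorubicin in both, and 4 moved apart (COL1A1, ITGB8, LAMA3 and LAMB3). Of 36 members, 30 were lower after MMS in both lines and none higher in both. After etoposide 25 of 35 were lower in both and 4 higher in both. After paclitaxel 16 of 36 were higher in both, 4 lower in both and 16 apart. Over all genes at 5 CPM or more, 49.4% of doxorubicin ratios were positive in U2OS and 46.3% in MDA-MB231. Of all MMS ratios 55.1% were negative in U2OS and 50.1% in MDA-MB231. The size was larger in U2OS for 29 of 39 members after doxorubicin and for 29 of 36 after MMS. Agreement between the lines and size by line were not counted over all genes, so neither can be called particular to the members. The median U2OS ratio was 0.92 after doxorubicin and -1.02 after MMS, and the MDA-MB231 medians were 0.52 and -0.51. A term for drug-treated U2OS cells tested the mean difference between the lines over the 4 drugs. It called no member and 0% of all genes (edgeR), with 1 member lower at an unadjusted p under 0.05. No member was called by DESeq2 or limma-voom. The fit with this term had 3 residual degrees of freedom. Larger U2OS changes of opposite sign, as after doxorubicin and MMS, offset each other in the term. It therefore cannot decide whether the size of the response differed between the lines.

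**Figure D4:**
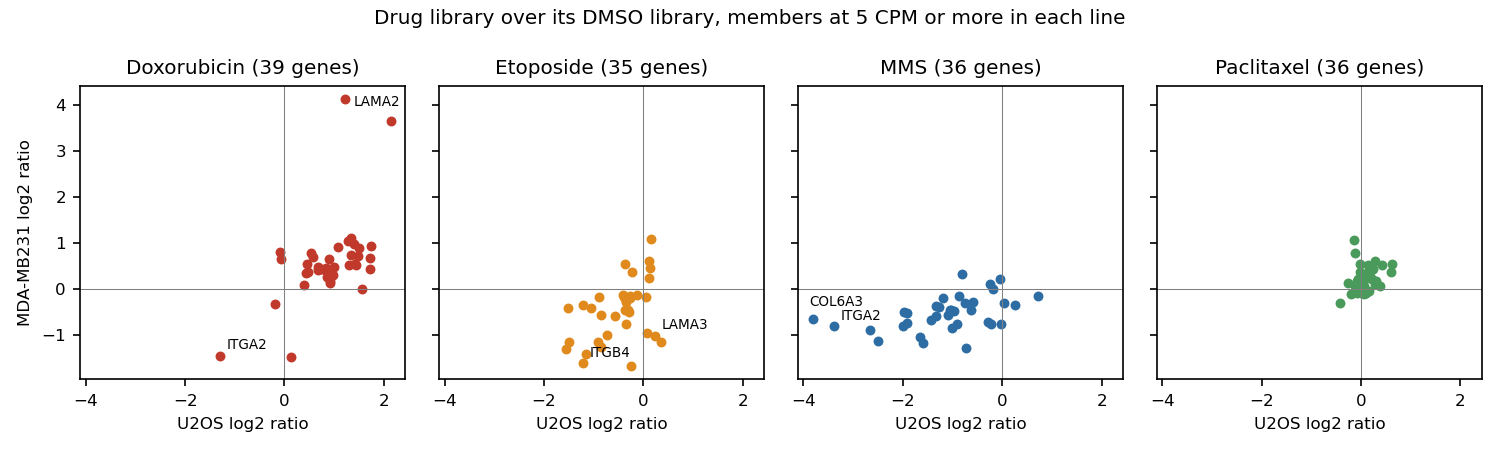
Log2 ratio of each drug library to its DMSO library in U2OS (horizontal) and in MDA-MB231 (vertical), 1 point per member at 5 CPM or more in each line. Points lie mainly in the upper right for doxorubicin (33 of 39) and in the lower left for MMS (30 of 36), with LAMA2 at 1.22 in U2OS and 4.13 in MDA-MB231.

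In MDA-MB231 doxorubicin COL1A1 had the lowest ratio of the 40 members, at -1.48 (interval -1.93 to -1.25). COL1A1 was at 12.9, 4.30, 28 and 18.7 CPM in that series, lower after doxorubicin and higher after etoposide, and at 10.0 and 5.74 CPM in the second. COL27A1 went in MDA-MB231 etoposide from 17.9 to 5.28 CPM (-1.67, interval -2.03 to -1.50) and was at 29 and 24.3 CPM in U2OS. The ITGA2 ratio after MMS was -3.39 (interval -3.51 to -3.30) in U2OS and -0.80 (interval -0.85 to -0.75) in the second MDA-MB231 series, and no test of this difference was made with 1 library on each side.

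The lines themselves differed in most members. Taken over all agents, 40 members were higher in U2OS and 13 higher in MDA-MB231, against 33.1% and 27.9% of all genes. These counts were 41 and 15 at an unadjusted p under 0.05. Of 10 tested fibrillar collagens 9 were higher in U2OS, and of 7 fibril-associated collagens 6. Several of these genes were nearly silent in MDA-MB231. COL22A1 had 236 reads in U2OS DMSO and 0 in both MDA-MB231 DMSO libraries, at least 167-fold higher against a floor of 3 reads over both. COL5A3 had 256 and 0 reads, at least 181-fold higher by the same floor. ITGA11, a collagen receptor of mesenchymal cells, had 276 reads in U2OS DMSO and 1 over the 2 MDA-MB231 DMSO libraries, a ratio of 585 with a counting interval of 104 to 23208.

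LAMC3 had 195 and 2 reads, a ratio of 207 (56.5 to 1719.9), and stood at 9.99, 22.7, 5.92, 7.37 and 10.8 CPM over the U2OS libraries. ITGA4 had 207 and 3 reads, a ratio of 146 (49.4 to 716). COL11A1 had 1160 reads against 2 and 5 (7.52 ± 0.38, adjusted p = 8.11e-07). Better counted in both lines were COL6A3 (321 CPM against 18.0 and 16.6), LAMA1 (145 against 3.46 and 4.50) and COL4A6 (89.2 against 3.97 and 6.19), with differences of 3.22 ± 0.40, 4.82 ± 0.28 and 3.85 ± 0.23 and adjusted p of 0.000121, 1.54e-06 and 1.81e-06.

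MDA-MB231 was higher in a smaller set that included laminin chains and integrin subunits. ITGB2 stood at 1.43, 6.01, 1.41, 0.546 and 1.72 CPM in U2OS, 59.8, 115, 57.4 and 62.7 CPM in the first MDA-MB231 series and 61.4 and 51.7 CPM in the second, the largest difference in this direction (-5.39 ± 0.27, adjusted p = 7.86e-07). COL8A1 (-3.29 ± 0.13, adjusted p = 2.23e-07), COL18A1 (-2.78 ± 0.14, adjusted p = 9.36e-07) and COL13A1 (-2.66 ± 0.21, adjusted p = 8.67e-06) were the collagens furthest toward MDA-MB231. LAMB3 stood at 249, 239, 119.7, 219 and 259.7 CPM in U2OS, 915, 1444, 686 and 955 CPM in the first MDA-MB231 series and 856 and 855 CPM in the second (-2.09 ± 0.13, adjusted p = 2.87e-06), and LAMA3 (-1.79 ± 0.33), ITGB4 (-1.79 ± 0.15) and ITGA6 (-0.95 ± 0.24) were called in the same direction. ITGA10 stood at 1.18, 2.20, 0.974, 1.72 and 1.25 CPM in U2OS, 6.73, 8.51, 7.37 and 17.2 CPM in the first MDA-MB231 series and 7.25 and 4.14 CPM in the second (-2.39 ± 0.34, adjusted p = 0.000287). ITGB1, ITGA3, ITGA5, LAMC1 and COL6A1 did not pass, with differences of -0.24, -0.22, 0.07, 0.25 and 0.28.

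**Figure D5:**
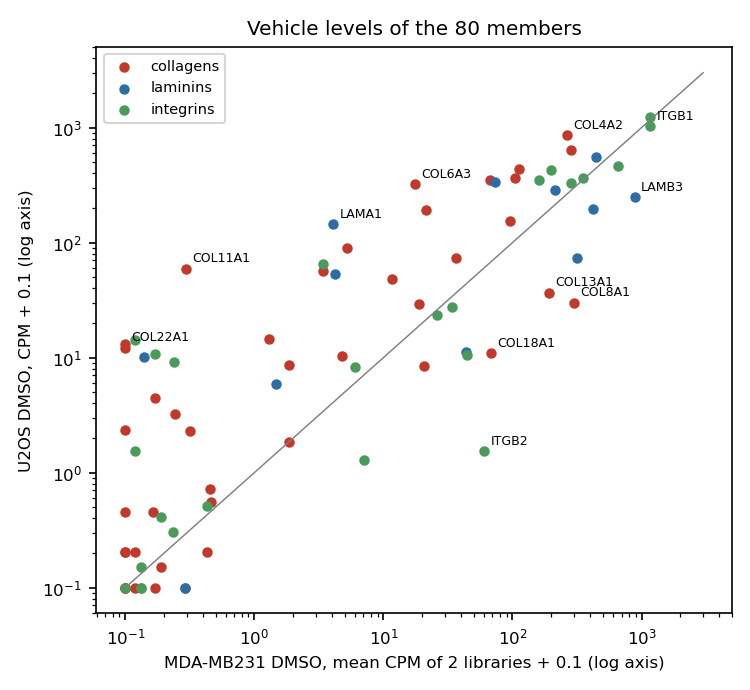
CPM plus 0.1 of the 80 members with DMSO, MDA-MB231 (mean of 2 libraries) on the horizontal and U2OS (1 library) on the vertical axis, both log axes, coloured by family, with the line of equal levels. Collagens such as COL11A1 lie far above that line, and ITGB2, COL8A1, COL13A1 and LAMB3 lie below it.

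Per kilobase of exon, so that genes can be set beside each other, ITGB1 and ITGA3 led in all 3 DMSO libraries. ITGB1 stood at 262 CPM per kb in U2OS and at 328 and 267 in MDA-MB231, and ITGA3 at 253, 215 and 259. In U2OS these were followed by ITGB5 (80.3 CPM per kb) and ITGA6 (79.9), and in MDA-MB231 by LAMB3 (204 and 191) and ITGA6 (106 and 121). COL4A2 was the collagen with the highest level per kb in U2OS, at 66.6, and COL13A1 (60.6) and COL8A1 (61.6) led in the first and second MDA-MB231 DMSO library.

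Genes that act around the members were read from 4 lists. Of 27 tested genes for collagen modification and secretion, 19 (70.4%) rose after doxorubicin and none fell (median 1.00 against 0.07 over all genes). They included LEPRE1, a prolyl 3-hydroxylase (1.48 ± 0.18, adjusted p = 0.00055), and ran from CRTAP, its partner (0.81 ± 0.15), to GLT25D2, a collagen galactosyltransferase (2.31 ± 0.75). After etoposide 3 of the 27 fell (11.1%, against 9.23% of all genes), with SERPINH1, the collagen chaperone HSP47, at -1.45 ± 0.18 (adjusted p = 0.00436), and after MMS 1 fell (3.7%, against 5.16%), ADAMTS3, a procollagen protease (-2.45 ± 0.30, adjusted p = 0.0056). Both shares were near those of all genes.

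Of 26 tested matrix glycoproteins, 10 (38.5%, against 21.9% of all genes) rose after doxorubicin and none fell. The called rises ran from SPARC (0.84 ± 0.26) to SPP1 (2.08 ± 0.46). After etoposide 1 rose (EMILIN1, 1.88 ± 0.44, 3.85% against 7.97% of all genes). In the same comparison 3 fell (11.5%, near the 9.23% of all genes), and after MMS 7 fell (26.9%, against 5.16%). THBS1, thrombospondin, had the lowest value after both, -2.54 ± 0.46 (adjusted p = 0.0113) for etoposide and -2.05 ± 0.44 (adjusted p = 0.0252) for MMS. FN1, fibronectin, did not pass for any drug, at 0.96 ± 0.40 after doxorubicin and -1.31 ± 0.46 after MMS (adjusted p 0.0816 and 0.101). Of 15 other matrix receptors, 10 rose after doxorubicin (66.7%, against 21.9% of all genes) and none fell. MRC2, a collagen uptake receptor, was highest at 1.41 ± 0.22. After MMS 5 fell (33.3%, against 5.16% of all genes) and 1 rose (6.67%, against 5.23%). The riser was the collagen receptor kinase DDR2 (2.61 ± 0.64, adjusted p = 0.0369). Of 28 adhesion complex proteins on the inner side of integrins, 6 rose and 6 fell after doxorubicin (21.4% each). These shares were near the 21.9% and 20.6% of all genes, and the calls lay between TGFB1I1 (-2.40 ± 0.29) and FLNA (1.01 ± 0.16). Of the same list 10 fell after etoposide (35.7%, against 9.23% of all genes, CAV1 lowest at -2.40 ± 0.47). A further 5 calls were falls after MMS (17.9%, against 5.16%, TNS3 lowest at -2.58 ± 0.39).

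Summed levels of the marker lists also varied between the libraries. The summed level of 8 mesenchymal markers, which include FN1 and SPARC, was 5967 CPM in U2OS DMSO and ran from 2114 to 10590.1 CPM over the U2OS libraries, and from 1319 to 3804 CPM over the MDA-MB231 libraries. Of the 8, all reached 1 CPM in U2OS and 7 in MDA-MB231. The 10 epithelial markers, 7 of them at 1 CPM or more in each line, summed to 436 to 1614 CPM in U2OS and to 328 to 731 CPM in MDA-MB231. The sum of 9 leukocyte markers ran from 15.0 to 54.2 CPM (U2OS) and 98.7 to 235 CPM (MDA-MB231), mostly CD68, which other cells also express. The 8 osteoblast markers summed to 23.1 to 120 CPM in U2OS and 144 to 435 CPM in MDA-MB231. The part of these shifts in the members' changes was not tested.

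Many members are long genes, and length was set beside the calls. All 66 tested members and 13849 of the 15888 genes had a span in GENCODE 29. Of 30 members of 100 kb or more, 14 rose after doxorubicin (46.7%), where 12.5% of all 2860 genes of that length rose and 20.5% fell. Their median was 0.98, against -0.10 for all such genes. Of 36 shorter members, 16 rose (44.4% against 24.7%). After MMS 10 long members fell (33.3% against 11.9%), with a median of -0.88 against -0.34, and 10 shorter ones (27.8% against 3.78%). After etoposide 2 long members (6.67% against 14.5%) and 4 shorter ones (11.1% against 8.33%) fell.

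RefSeq promoter entries were found for 56 of the 80 members, with 75 starts. GGGCGG was present in the 250 bases before 54.7% of these starts and before 42.6% of all 35116 starts in the table. It was in 64.5% of 31 starts of members higher after doxorubicin and in 71.4% of 21 starts of members lower after MMS, sets that share genes. CCAAT was in 21.3% of the members' starts and 32.0% of all, TATAAA in 13.3% and 10.7%, and TGANTCA in 4% and 6.57%. These are letter matches on either strand of one window, given as a description.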

How the data were processed

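RNA was sequenced from 11 libraries of U2OS and MDA-MB231 cells. The authors deposited whole-number read counts per gene, made with CASAVA 1.8.2, TopHat2 2.0.8b and HTSeq per the submitters' processing notes, which name the builds hg19 and mm9. Whether counting used strand is not given in the sources used here. Overlapping and antisense genes can therefore share reads.

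Genes were fitted with edgeR 4.0.16 in R 4.3.3 (filterByExpr, TMM factors, quasi-likelihood test, Benjamini-Hochberg adjustment over 15888 genes) with drug terms and a block of 3 levels: U2OS, the first MDA-MB231 series and the second. The pairing of drug and DMSO libraries comes from the cell line and the form of the titles. The residual degrees of freedom were 4, and the common biological coefficient of variation was 0.213. SE was taken as the change over the root of its F statistic. DESeq2 1.42.0 and limma-voom (limma 3.58.1), other scalings, filters and blocks, and the omission of each library in turn were alternatives, and library totals without TMM factors were added after seeing the data. Ratios within a line used a pseudocount of 0.5 CPM and members with 5 CPM or more in the larger library.

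Members and lists were chosen with earlier results of these data known. The rule for named members took, per drug, the 4 highest and 4 lowest called changes among members at 5 CPM or more, those called with opposite signs for 2 drugs, the 6 highest and 6 lowest calls between the lines, and the 2 highest and 2 lowest ratios past 2-fold per line and drug at 10 CPM or more. Per pathway list it took the highest and lowest called gene. Other called members could be named with a value. Members that did not pass, FN1, LEPRE1 and the COL4A1 and COL4A2 start region were added after their values were seen. Values of 1 member that the rule names are not reported here, and it remains in the counts. The analysis steps were tested on simulated data. Gene spans are from GENCODE 29, and promoter sequences from RefSeq (GRCh38.p14), which is not the build of the counts.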

Additional observations from a re-analysis of the deposited data

How the results depend on the processing

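Over the fits that each left out 1 library, the number of called members ran from 20 to 33 after doxorubicin (30 with all libraries), 0 to 14 after etoposide (10), 0 to 23 after MMS (21), 28 to 42 for doxorubicin against etoposide (42), 13 to 40 for MMS against doxorubicin (40), 0 to 12 for MMS against etoposide (5) and 49 to 57 between the lines (53). After paclitaxel, and for the drug-treated U2OS term, it was 0 in each of them.

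The block in the fit stands for line and series, the pairing of each drug library with its DMSO library. Without the replicate block, and so with no term for the line, the counts were 5 after doxorubicin, 0 after etoposide, 0 after MMS, 2 for doxorubicin against etoposide, 4 for MMS against doxorubicin and 0 for MMS against etoposide, and COL8A1 after doxorubicin took -0.14 (adjusted p 0.975, edgeR). With a block for the line alone they were 23, 13, 11, 38, 46 and 6 in the same order. With only a drug and its DMSO libraries in the fit, the counts were 7 after MMS and 1 after paclitaxel. MMS against etoposide gave 14 with DESeq2 and 9 with library totals, the latter chosen after seeing the data. COL5A3 after MMS ran from -3.36 to 0.67 over the fits with a library left out, the positive value being that without U2OS DMSO (adjusted p 0.762). With a larger CPM of at least 1, members past 2-fold in MDA-MB231 doxorubicin numbered 11 rather than 6, and against the other MDA-MB231 DMSO library those after paclitaxel numbered 6 rather than 2. The causes of these shifts were not tested.

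For the fitted changes of named genes, 801 of 1016 alternatives over 52 results kept direction and call, 213 kept the direction but lost the call, and the 2 above reversed. No named difference between the lines was lost or reversed. All losses and reversals therefore fell among the drug comparisons, which were less stable than the pooled counts. Of 53 alternatives for 21 ratios within a line, 32 stayed within the counting interval and 21 moved beyond it. With 1 library for most lines and agents, the spread comes from how the drug responses differ between the lines. Changes in members with few reads, such as COL20A1 and ITGAM, were at the limit of depth.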
